A study of Bos taurus with 12 samples.

Results

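The genes described here belong to families known to move sodium and water across epithelia such as that around the blastocyst cavity: the Na/K-ATPase beta subunits ATP1B1, ATP1B2 and ATP1B3, the aquaporins AQP3, AQP8, AQP9 and AQP11, and the sodium/hydrogen exchanger SLC9A3. They were taken by symbol from the table of raw read counts, where all 8 were listed among 32637 genes. The study profiled expanded bovine blastocysts, produced in vitro from slaughterhouse oocytes and bull semen, by low-input RNA-seq to compare the sexes. The groups were 6 female and 5 male libraries, and the labels give no treatment or genetic change other than sex. Each library was made from 2 embryos of one sex, each cut so that a part with both inner cell mass and trophectoderm went to RNA-seq and the rest was sexed by PCR. The study collected expanded blastocysts on different days after fertilization. The day, the bull and the week of collection of each pool are not in the labels. A pool was the replicate, and the p-values below measure the spread between these pools.

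The cavity of the blastocyst, the blastocoel, is filled by the trophectoderm, the outer epithelium of the embryo. The Na/K-ATPase, in which a beta subunit brings the catalytic subunit to the basolateral membrane, pumps sodium towards the cavity, and water follows through aquaporins. Sodium enters the trophectoderm cells from outside in part through exchangers of the SLC9 family, which trade sodium for hydrogen ions.

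The female libraries held 6664112 to 16162985 counted reads, and the male libraries 9942952 to 21392764. The fewest genes with a count, 14937, were in male replicate 5, which was also the most deeply sequenced library. Levels are given as CPM, counts on a common scale of library size set with the TMM factors of edgeR, and they are not divided by transcript length, so levels of different genes are not compared. The trophectoderm markers chosen for this tissue were all expressed: the sum of the 10 genes ran from 7860 to 23120 CPM in the female and from 9181 to 36070 CPM in the male libraries. The sum of 7 inner cell mass markers ran from 561 to 979 CPM in the female and from 843 to 1078 CPM in the male libraries. For 7 markers of the hypoblast the sum was 228 to 620 CPM in females and 208 to 466 CPM in males. GATA6, at a mean of 188 CPM in females and 176 CPM in males, and PDGFRA, at 152 and 149 CPM, made up most of it. SOX17, FOXA2 and GATA4 averaged at most 1.63 CPM in either sex. For 7 markers of the cumulus cells that surround the oocyte the sum was 7.18 to 32.6 CPM in females and 5.37 to 29.4 CPM in males. Of these 7, INHA, AMH and FOXL2 had at most 7 counts over all libraries. FSHR, at 13.0 ± 8.03 CPM (SD) in the 6 females and 9.98 ± 5.69 CPM (SD) in the 5 males, made up most of the sum, and HAS2, TNFAIP6 and CYP19A1 were detected in 8 to 11 libraries. Enough counts for a test were found in 10 trophectoderm, 7 inner cell mass, 5 hypoblast and 3 cumulus markers. None of them was called between the sexes by edgeR, against 1.91% of all tested genes. An unadjusted p under 0.05 was found for 2 of them, PTGS2 and CYP19A1, both higher in females, and for 13.2% of all tested genes. In such pools, fewer cells of a type and less RNA per cell cannot be told apart.

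None of the pumping genes was called sex-biased. By edgeR's quasi-likelihood test, 0 of the 6 genes with enough counts passed a Benjamini-Hochberg FDR of 0.1 and a fold change of 1.5, against 245 of all 12802 tested genes, or 1.91%, of which 0.414% were higher in males and 1.5% in females. Of the 6, 1 had an unadjusted p under 0.05, SLC9A3, whereas 13.2% of all tested genes did. DESeq2 also called 0 of the 6, with 1 at an unadjusted p under 0.05, and called 4.77% of all tested genes. The fitted level was higher in males for 2 genes and higher in females for 4, and the median log2 fold change of males over females was -0.18, beside 0.01 for all tested genes. AQP8 and AQP9 had too few counts to enter this test. In no tested member were all males above all females, or all females above all males, which happened in 1.44% and 1.88% of all tested genes.

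**Figure D1:**
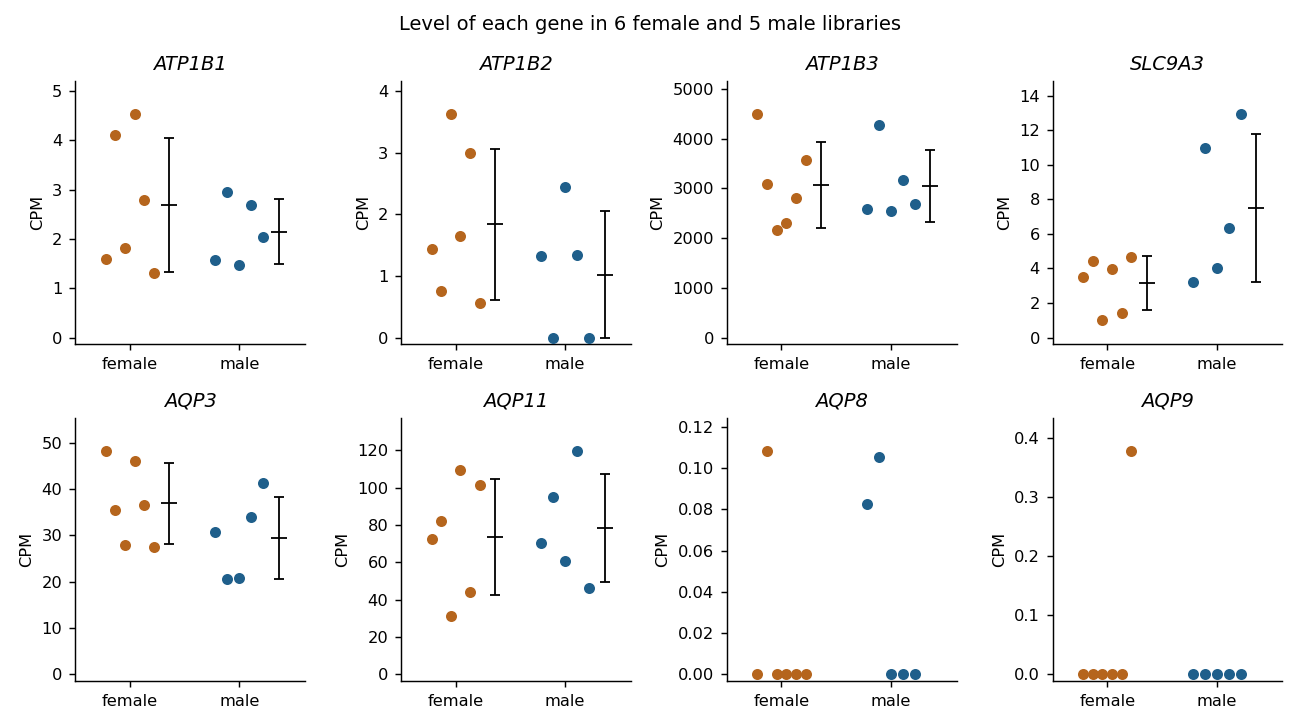
CPM of each of the 8 genes (y axis, a separate linear scale for each gene) in the 6 female (brown) and 5 male (blue) libraries, with the mean and SD at the right of each group, except for AQP8 and AQP9. The sexes overlap for every gene, and 3 of the 5 males lie above the highest female for SLC9A3.

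ATP1B3, one of the 3 beta subunits in the set, took nearly all of the beta subunit reads. The gene lies at chr1:127050089-127096874 of the ARS-UCD2.0 assembly and overlaps no other annotated gene. Its counts per library ran from 16816 to 59043. The female libraries ranged from 2158 CPM, with a median of 2946, to 4489 CPM. The males were at 2583, 4280, 2549, 3173 and 2678 CPM in replicates 1 to 5. All 5 males lay within the female range, with means of 3069 ± 866 (SD, n = 6) and 3053 ± 731 CPM (SD, n = 5). The log2 fold change of males over females was -0.05 ± 0.17 (SE), with a 95% interval from -0.42 to 0.31 and an edgeR adjusted p of 0.931. The interval leaves out a change of 1.5-fold in either direction. Within library numbers 1, 2 and 3, the first number of each library's name, whose meaning the sources used here do not give, males differed from females by -0.16, 0.19 and -0.12 in mean log2 CPM.

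The spread of ATP1B3 between libraries was far above counting error. Its coefficient of variation was 28.2% in females and 23.9% in males, where counting alone would give 0.523% and 0.492%. By library number, the mean was highest for library number 1, at 3788 CPM in females and 3432 CPM in males, and lowest for library number 2, at 2232 and 2549 CPM. Library number 3 lay between them, at 3186 and 2925 CPM. In males this order rests on single libraries, since library number 2 held 1 male, and number 1 held replicate 1, at 2583 CPM, and replicate 2, at 4280 CPM. Across the 3 library numbers ATP1B3 had an unadjusted p of 0.0378, as 6.93% of all tested genes had one under 0.05, but an edgeR adjusted p of 0.693. None of the 6 members was called between library numbers by edgeR, nor any of the 4 to which DESeq2 gave an adjusted p (it gave none to ATP1B1 and ATP1B2), against 0.00781% and 0.789% of all tested genes, and ATP1B3 was the 1 member with an unadjusted p under 0.05 by either tool.

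ATP1B1, the beta subunit of the pump in most epithelia, had only 19 to 42 counts per library. It lies at chr16:36759206-36784734, and its end overlaps the gene NME7, which had 2611 counts over all libraries. Whether reads were counted by strand is not given in the sources used here, so reads of the stretch that both genes cover cannot be told apart. In females the level ran from 1.32 CPM, with a median of 2.30, to 4.53 CPM, and female replicates 2 and 4 stood above the other 4. The males were at 1.57, 2.95, 1.48, 2.697 and 2.03 CPM, all within the female range. Female libraries averaged 2.69 ± 1.36 CPM (SD, n = 6) and male libraries 2.15 ± 0.661 CPM (SD, n = 5). The log2 fold change was -0.30 ± 0.47 (SE; 95% interval -1.33 to 0.73; edgeR adjusted p = 0.842), an interval that holds changes of over 1.5-fold in both directions. Within library numbers 1, 2 and 3 the differences in mean log2 CPM were -0.24, -0.89 and 0.26.

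ATP1B2, a beta subunit best known from nervous tissue, was the most variable of the beta subunits. The gene lies at chr19:27364739-27369048 and overlaps no other annotated gene. The females were at 1.45, 0.758, 3.63, 1.65, 3.00 and 0.565 CPM in replicates 1 to 6, from 7 to 50 counts. Males 1, 3 and 4 were at 1.32, 2.44 and 1.35 CPM. Males 2 and 5 had 0 counts, which allows a level of up to 0.317 and 0.145 CPM at the limit of 3 counts, below the lowest female. That limit, like every counting limit here, takes in the error of counting alone, because PCR copies of a molecule were counted apart where no identifiers marked them. The log2 fold change was -0.80 ± 0.92 (SE; 95% interval -2.80 to 1.20; edgeR adjusted p = 0.764), so that the sexes were not told apart, nor was a large difference in either direction left out. Within library numbers 1, 2 and 3 the differences in mean log2 CPM were -1.33, -0.01 and -1.63, and library number 2 held 1 male.

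Among the reads of the 3 beta subunits, ATP1B3 made up 99.86% ± 0.0754 (SD, n = 11), ATP1B1 0.0848% ± 0.0460 and ATP1B2 0.0552% ± 0.0514. These are shares of reads and not of transcripts, since lengths were not at hand. The share of ATP1B3 lay between 99.73% and 99.95% in every library of both sexes. Of all counted reads, ATP1B3 took 0.315% ± 0.0719 (SD, n = 6) in females and 0.291% ± 0.0665 (SD, n = 5) in males.

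SLC9A3, the exchanger known as NHE3 that brings sodium into epithelial cells at their apical side, was the tested member with an unadjusted p under 0.05 between the sexes. It lies at chr20:71607337-71645487 and overlaps a long non-coding RNA, LOC132343263, which had 1 count over all libraries. In females the level was 3.50, 4.44, 1.02, 3.98, 1.40 and 4.65 CPM in replicates 1 to 6. In males it was 3.22, 10.97, 4.05, 6.35 and 12.9 CPM in replicates 1 to 5. Males 2, 4 and 5 lay above the highest female, 4 of the 5 males lay above the female median of 3.74 CPM, and male 1 lay below it. Female replicates 3 and 5 were the lowest of all libraries.

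For SLC9A3 the females averaged 3.16 ± 1.57 CPM (SD, n = 6) and the males 7.50 ± 4.27 CPM (SD, n = 5). The log2 fold change was 1.12 ± 0.49 (SE), or 2.18-fold, with a 95% interval from 1.04- to 4.56-fold. The unadjusted p was 0.0398, and adjusted over all 12802 genes it was 0.350 by edgeR and 0.210 by DESeq2, so the difference did not pass the correction. The male mean was higher within each library number, by 0.58, 0.93 and 1.75 in mean log2 CPM. Single libraries weighed on this. In number 1, male replicate 1, at 3.22 CPM, lay below female replicates 1 and 2. Number 2 held 1 male, at 4.05 CPM, beside female replicates 3 and 4 at 1.02 and 3.98 CPM. Without male replicate 5, the library with the fewest detected genes, the log2 fold change was 0.87 and the edgeR adjusted p 0.397; over all refits without 1 library the log2 fold change lay between 0.87 and 1.39.

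**Figure D2:**
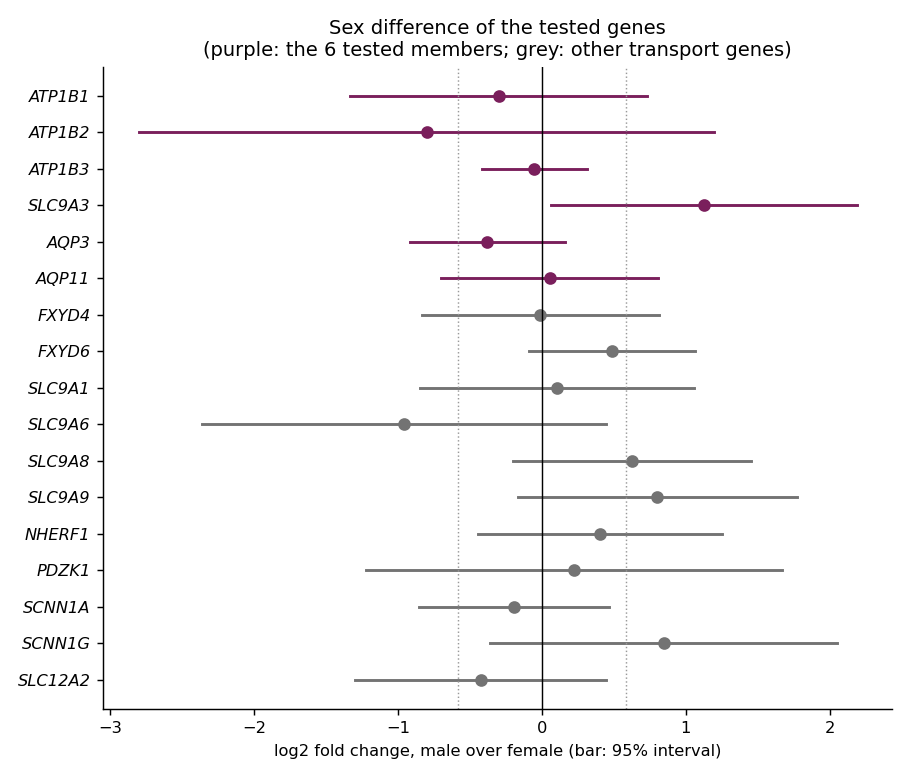
Log2 fold change of males over females (x axis) for the 6 tested members (purple) and 11 other transport genes (grey), with 95% intervals from the edgeR fit and dotted lines at 1.5-fold. Every interval but that of SLC9A3 crosses 0, and that of SLC9A3 runs from 0.06 to 2.19 before any correction for the number of genes.

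Among the aquaporins, AQP3 and AQP11 were expressed in every library, and AQP8 and AQP9 were at or near 0. AQP3, a channel for water and glycerol found at the basolateral membrane of many epithelia, lies at chr8:75194697-75200652 and overlaps no other annotated gene. Its female libraries ran from 27.5 CPM, with a median of 36.04, to 48.2 CPM. The males were at 30.8, 20.6, 20.8, 34.0 and 41.4 CPM. Males 2 and 3 lay below the lowest female, and the other 3 lay within the female range.

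AQP3 averaged 37.0 ± 8.76 CPM in the 6 females and 29.5 ± 8.90 CPM in the 5 males (SD). The log2 fold change was -0.38 ± 0.25 (SE; 95% interval -0.92 to 0.16; edgeR adjusted p = 0.565), a difference no larger than the spread between libraries. Males were lower in library numbers 1 and 2, by a log2 of -0.71 and -0.78, and higher in library number 3, by 0.24.

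AQP11, an aquaporin with an unusual pore that is mostly found on membranes inside the cell, lies at chr29:18378222-18393257 and overlaps no other annotated gene. In females it ran from 31.2 CPM, with a median of 77.5, to 109.4 CPM, and replicates 3 and 5 were the lowest. The males were at 70.5, 94.96, 60.8, 119.6 and 46.4 CPM. Male 4 lay above the highest female and no male below the lowest. The 6 females averaged 73.6 ± 31.1 CPM (SD) and the 5 males 78.5 ± 29.02 CPM (SD). With a log2 fold change of 0.05 ± 0.35 (SE; 95% interval -0.70 to 0.81; edgeR adjusted p = 0.969), the sexes were not told apart, and its sign turned when any 1 of 4 libraries was left out. Within library numbers 1, 2 and 3 the differences in mean log2 CPM were 0.08, 0.06 and 0.16.

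Of the reads of the 4 aquaporins, AQP11 took 67.6% ± 10.8 (SD, n = 11) and AQP3 32.4% ± 10.8. The share of AQP3 was 35.6% ± 10.2 (SD, n = 6) in females and 28.6% ± 11.3 (SD, n = 5) in males, and it ranged from 17.8% in male replicate 2 to 47.2% in female replicate 3. Male replicate 5, at 47.1%, stood with the highest females, so the balance between these genes differed more within each sex than between the means of the sexes.

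AQP8 and AQP9 were close to absent at this depth. AQP8, a water channel of the gut and other glandular tissues (chr25:22801765-22811949), had 1 count each in female replicate 2, male replicate 1 and male replicate 2 and 0 in the other 8 libraries. AQP9, which also passes glycerol and other small solutes (chr10:52087959-52136099), had 6 counts in female replicate 6, or 0.377 CPM, and 0 in the other 10 libraries. A count of 0 allows a level of up to 0.145 to 0.411 CPM, depending on the library. With so many libraries at 0, a two-sided exact permutation test of the sex labels could not have gone below p = 0.0606 for AQP8 or 0.455 for AQP9, so whether the sexes differ cannot be tested here.

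The members also differed in how much they varied between libraries once sex and library number were fitted. The plot of this spread uses edgeR's biological coefficient of variation, which falls with a gene's level across the table. It is the variation left after counting error and after the fitted differences between sexes and library numbers. Set against the 1000 tested genes nearest in level, AQP11, at 0.398, stood at percentile 96.2 and ATP1B2, at 0.975, at percentile 93.5. SLC9A3, at 0.545, stood at percentile 78.7 and AQP3, at 0.298, at percentile 65.8. ATP1B3, at 0.215, and ATP1B1, at 0.507, stood at percentiles 50.4 and 39.8. With sex and library number set aside, ATP1B3 thus varied about as much as the other genes of its level, while AQP11 and ATP1B2 varied more than most.

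**Figure D3:**
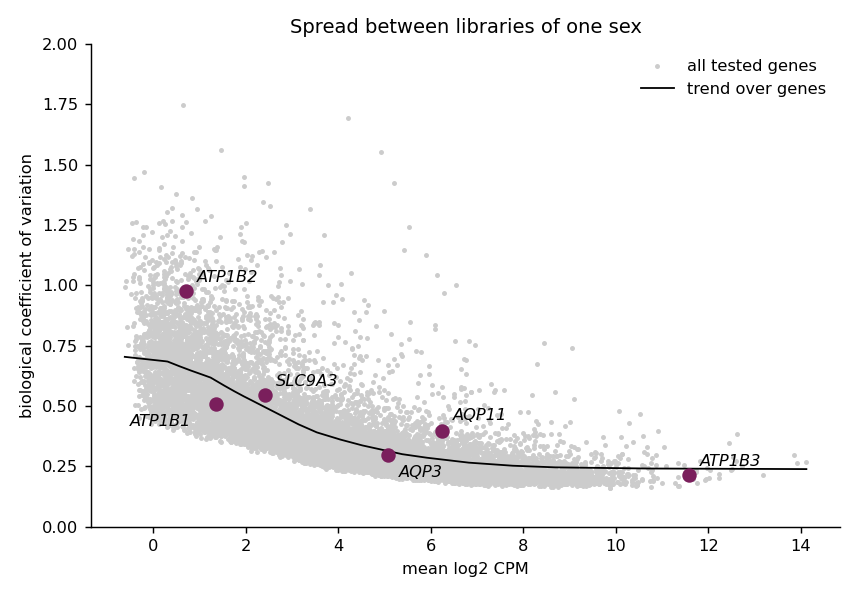
Biological coefficient of variation from edgeR (y axis) against mean log2 CPM (x axis) for the 12802 tested genes (grey), with the trend over genes (line) and the 6 tested members (purple). The coefficient is the variation left after counting error, sex and library number. AQP11 and ATP1B2 lie above the trend for their level, and ATP1B3, far to the right, lies close to it.

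Levels of some of these genes moved together, or in opposite directions, from library to library. Correlations of log2 CPM were computed over the 11 libraries for the 21 pairs among the 6 tested members and FXYD4, and each p comes from 100000 permutations. FXYD4 was the only gene added from the wider set of transport genes. AQP4, NHERF1 and SLC12A2, also named below, were left out, and the adjustment covers these 21 pairs alone. A pair is said to pass at a Benjamini-Hochberg adjusted p under 0.05. How often other pairs of tested genes reach such values over these libraries is not given here. A pass is therefore not shown to be particular to these genes. ATP1B2 and SLC9A3 were opposed, with r = -0.87 (permutation p = 0.0009, adjusted over the pairs 0.0189) and rho = -0.82 (permutation p = 0.00311, adjusted 0.0327). The males with 0 counts of ATP1B2 were those with the highest SLC9A3, and female replicates 3 and 5, the highest for ATP1B2, were the lowest for SLC9A3. The value of a library with 0 counts on this log2 scale is set by the prior count of 2. Without the 2 libraries farthest from the median of ATP1B2, r was -0.75, and over all sets of 10 libraries it lay between -0.91 and -0.82. After centring within sex r was -0.85, as it was within library number, and in the 6 females alone it was -0.91.

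FXYD4, a small membrane protein that modulates the Na/K-ATPase, varied in the same direction as SLC9A3 and ATP1B3. At this threshold each pair passed by 1 of the 2 coefficients. For SLC9A3, r was 0.78 (permutation p = 0.00301, adjusted 0.0316), whereas rho was 0.67 (adjusted permutation p = 0.168). It was 0.71 without the 2 farthest libraries, 0.90 within sex and 0.74 within library number. For ATP1B3, rho was 0.85 (permutation p = 0.00158, adjusted 0.0327), whereas r was 0.75 (adjusted permutation p = 0.0668), with 0.66 without the 2 farthest libraries, 0.75 within sex and 0.65 within library number. The other 18 pairs did not pass by either coefficient, the nearest being AQP11 and FXYD4, with r = 0.69 (adjusted permutation p = 0.0987). AQP11 and SLC9A3 had r = 0.53 over all libraries (adjusted permutation p = 0.332) and 0.86 without male replicate 5, in which SLC9A3 was highest and AQP11 among the lowest. The value went the other way with other libraries left out: r was 0.24 without female replicate 3 and -0.20 without the 2 farthest libraries.

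**Figure D4:**
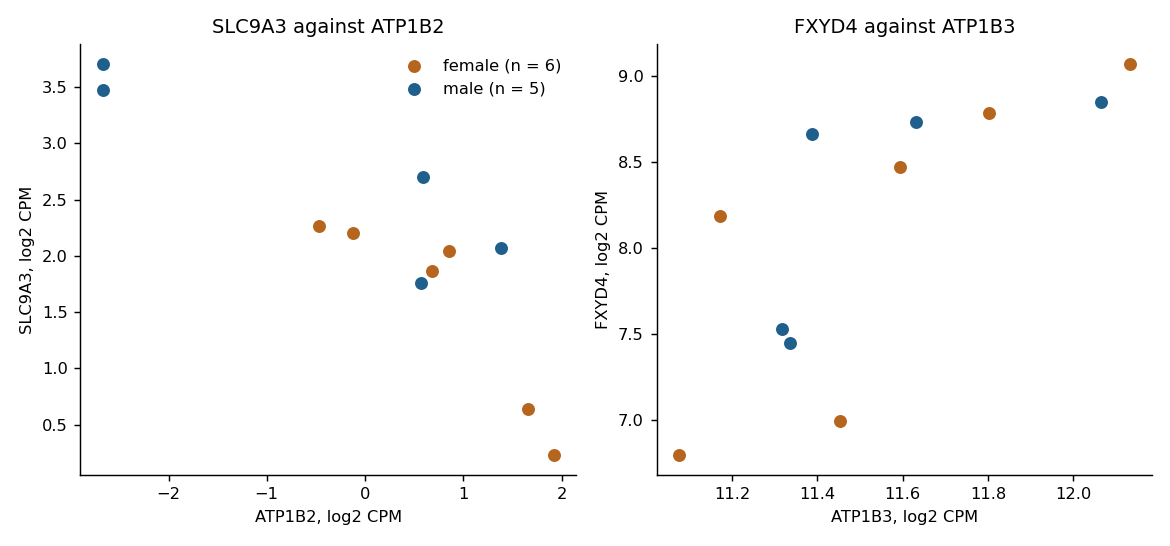
Log2 CPM of SLC9A3 against ATP1B2 (left) and of FXYD4 against ATP1B3 (right), with 1 point for each of the 6 female (brown) and 5 male (blue) libraries. SLC9A3 falls as ATP1B2 rises, with the 2 males at 0 counts of ATP1B2 at the far left, and FXYD4 rises with ATP1B3.

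None of the 6 tested members followed the mean log2 CPM of a cell type's tested markers beyond the correction. Over 24 relations, of 6 genes with the tested genes of the trophectoderm (10), inner cell mass (7), hypoblast (5) and cumulus (3) lists, the lowest adjusted permutation p was 0.302 for r and 0.344 for rho. SLC9A3 had r = 0.61 with the inner cell mass list and 0.48 with the trophectoderm list. After centring within sex the order was reversed, at 0.44 and 0.65. Opposite signs were found for ATP1B2 and ATP1B3 with the trophectoderm list, at r = -0.53 and 0.52. Values of like size were found with other lists, at r = -0.49 for ATP1B2 with the inner cell mass list and 0.57 for ATP1B3 with the cumulus list.

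For each tested member, the most similar patterns over the 11 libraries were looked up among all tested genes, as a description. For ATP1B3 these were ANXA7, with r = 0.91, and HYCC1, with r = 0.90, and for ATP1B1 they were HOMER1, at 0.90, and COX7B2, at 0.89. ATP1B2 was followed most closely by ZNF518A, at r = 0.97, and UTF1, at 0.96. The genes nearest to SLC9A3 were LOC515042 and COL18A1, each at r = 0.95. For AQP3 they were ARNT, at 0.90, and ADAM11, at 0.87, and for AQP11 they were LOC781977, at 0.92, and TNNC2, at 0.91. These genes were picked for their high r among all tested genes over only 11 libraries. How high r runs for unrelated genes picked in this way was not tested.

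Of the wider set of transport genes, 36 were in the table, and 11 had enough counts for the test. By edgeR, 0 of the 11 were called between the sexes, against 1.91% of all tested genes. An unadjusted p under 0.05 was found for 0 of the 11, against 13.2% of all tested genes. DESeq2 likewise called 0, against 4.77%. Their median log2 fold change of males over females was 0.22.

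Of 8 further regulators, the FXYD proteins and ATP1B4, 2 were tested. FXYD4 stood at 310 ± 170 CPM (SD) in the 6 females and 330 ± 139 CPM (SD) in the 5 males, with a log2 fold change of -0.01 ± 0.38 (SE, edgeR adjusted p = 0.995). It ranged from 111 CPM in female replicate 3 to 538 CPM in female replicate 1. None of the 8 other aquaporins in the table passed the filter on counts, and AQP1 and AQP2 had 0 counts in all libraries. AQP4, named for its mean over all libraries, had 0.493 ± 0.519 CPM (SD) in the 6 females and 0.309 ± 0.403 CPM (SD) in the 5 males. Of the 12 aquaporins examined, members included, only AQP3 and AQP11 passed the filter.

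Among 11 other exchangers and the scaffolds that hold SLC9A3 at the membrane, 6 were tested. NHERF1, such a scaffold, averaged 408 ± 190 CPM (SD) over the 6 females and 637 ± 576 CPM (SD) over the 5 males (log2 fold change 0.40 ± 0.39 SE, edgeR adjusted p = 0.713). Male replicate 5 alone was at 1668 CPM and the other males were between 354 and 397 CPM. That library also had the highest SLC9A3. Of 9 other sodium and chloride routes, 3 were tested. SLC12A2, which carries sodium, potassium and chloride into the cell together, averaged 29.5 ± 15.9 CPM (SD) over the 6 females and 22.8 ± 13.3 CPM (SD) over the 5 males (log2 fold change -0.42 ± 0.40 SE, edgeR adjusted p = 0.707).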

How the data were processed

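RNA-seq counts of 6 female and 5 male pools of expanded blastocysts were used, grouped by the sample labels. The authors used fastp 0.20.0 for trimming, STAR 2.7.10b for alignment to ARS-UCD2.0 and featureCounts for counting, and deposited raw counts per gene. Locations came from RefSeq (30271 symbols matched, all 8 members included), and no transcript lengths or sequences were at hand. A 4-cell Iso-seq sample was not analysed here.

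The counts were fitted in R 4.3.3 with edgeR 4.0.16 (filterByExpr by sex, which left 12802 genes, TMM factors, quasi-likelihood test). The library number, from 1 to 3, was a term beside sex. It stood in for the study's collection week, which the labels do not give. Benjamini-Hochberg adjustment ran over all tested genes. Genes were called at an FDR under 0.1 and a fold change over 1.5. Standard errors and 95% intervals came from the same F statistics. Log2 CPM used a prior count of 2. DESeq2 1.42.0 (same genes and terms) was an alternative. The threshold of 0.05 for correlations was set after their values were seen. Permutation tests used python 3.11.15 with scipy 1.17.1. The scripts were tested on simulated counts. Libraries of one sex were compared in pairs, and none was a copy of another (chi-square per degree of freedom at least 15.3). Male replicate 5 was the library least like the others of its sex, with r of log2 CPM from 0.861 to 0.887. All other pairs of one sex had an r of at least 0.929.

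The members, lists and tests were chosen with earlier results of these data known. Genes named were the 8 members, the most abundant of each transport role, any called gene of that list, and the 2 tested genes most like each tested member. The genes AQP1 and AQP2, and the marker genes named singly, fall outside that rule, having been picked once their values were known. Some genes first listed with the transport genes are not reported here. Titles of the samples also number the replicates, so that a fit with these numbers as a block was tried. Deviations of same-numbered females and males correlated at -0.11 to 0.35 over 5 pairs, with a median of 0.03 and the highest value for replicate 3. Pairs of the same library number ran from -0.11 to 0.35 over 10 pairs, with a median of 0.0005. Pairs of different library number ran from -0.30 to 0.24 over 20 pairs, with a median of -0.05. The pairs of the same title number are spread over both of these sets. These ranges overlap and do not settle a pairing, and the numbers were not taken to pair the samples.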

Additional observations from a re-analysis of the deposited data

Results flagged for a closer look

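Each gene named by the rule was checked for a library far from the others of its sex, over 23 groups of libraries, and chance alone would mark about 1 in 20 groups. For AQP8, female replicate 2, at 0.108 CPM, stood apart from the other females, all at 0, and this rests on 1 read. For AQP9, female replicate 6 stood at 0.377 CPM, from 6 reads, where the other females had none. NHERF1, the scaffold of SLC9A3, was at 1668 CPM in male replicate 5 against 397 CPM in the next highest male. Male replicate 5 was also highest for SLC9A3, had the fewest detected genes and was the least like the other males over the genes as a whole. The part of this library in either gene's level was not tested beyond the refit without it.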

How the results depend on the processing

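None of the 6 members, nor of the 11 other transport genes, was called between the sexes under any alternative (no block, title numbers as a block, DESeq2, RLE factors, autosomal TMM factors, no or a stricter filter, an FDR of 0.05, or without each library), and no member was called between library numbers, where DESeq2 gave an adjusted p to 4 of the 6. Over the same settings the number of all genes called by sex ran from 95 without male replicate 3 to 743 of 23857 with no filter. In the main fit it was 245, without male replicate 5 364, without the library number 326, by DESeq2 611 and at an FDR of 0.05 125. With no filter 658 genes were called between library numbers and by DESeq2 101, against 1.

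With the replicate block by title number, 132 genes were called, and the log2 fold change of ATP1B3 turned from -0.05 to 0.065 (adjusted p = 0.917), that of ATP1B2 from -0.80 to -1.65 and that of AQP11 from 0.05 to 0.26; the cause was not tested. The best match of a library in the other sex shared its title number in 4 of 11 libraries and its library number in 6. Without 1 library in turn, ATP1B3 ran from -0.15 to 0.055, above 0 without female replicate 1 or male replicate 1. AQP11 ran from -0.21 to 0.30, below 0 when a library was left out from among female replicates 3 and 5 and male replicates 2 and 4. ATP1B1 ran from -0.53 to -0.06, ATP1B2 from -1.38 to -0.28 and AQP3 from -0.55 to -0.23. SLC9A3 stayed between 0.87 and 1.39 in these refits and between 1.10 and 1.38 elsewhere, with a lowest adjusted p of 0.160, with no filter.

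The counts of AQP8 and AQP9 were too few for a test. For the 6 tested members the coefficient of variation in each sex was above that from counting alone.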
